A study of Mus musculus with 2 samples.

Results

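The 10 genes described here encode the NF-kappaB transcription factor subunits and proteins that hold them in check or modulate them: Nfkb1, Nfkb2, Rel, Rela, Relb, Nfkbia, Nfkbib, Nfkbie, Nfkbiz and Tnfaip3. They were chosen by name, not by any measured value, from 21887 protein-coding genes, though with earlier results of these data known. Chromatin accessibility was measured by ATAC-seq, in which Tn5 transposase cuts and tags open DNA, in sorted nuclei of hepatic stellate cells, pericytes of the liver that store vitamin A. There were 2 samples of 1 group, labelled replicates A and B, which allows no comparison of conditions and no test between groups. The mice were of strain C57BL6/JBomTac, healthy and on chow. All carried the allele Gt(ROSA)26Sortm1(mCherry-Rpl10a-Flop)Kra and, as a transgene, Tg(Lrat-cre)1Rshw, on a background written B6.Cg. The Cre transgene is named for Lrat, a stellate cell gene, and the profile is of nuclei that a sort on mCherry-RPL10A took as tagged. Ages, and whether the samples came from separate or pooled animals, are not given in the sources used here, so the spread between A and B may be technical. Inside the list of B the peaks are named with a word for oil, whereas its label says chow and control, and the label was followed.

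NF-kappaB is a family of dimeric transcription factors built from the products of Nfkb1, Nfkb2, Rel, Rela and Relb. In resting cells the dimers are kept in the cytoplasm by inhibitors of the IkappaB family, and cytokines or microbial products release them by having the inhibitor phosphorylated and degraded. Several of the inhibitors are themselves NF-kappaB target genes, which makes the pathway a negative feedback loop. In stellate cells the pathway is known for inflammatory gene expression and survival after liver injury.

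A peak is an interval that the authors' peak caller found enriched in 1 library. Replicated peaks are those of A sharing 1 bp or more with a peak of B, and they are placed by the entry of A, in mm10. A locus means the gene body plus 20 kb to each side. Fold enrichment here means the authors' ratio over local background. It is not scaled between libraries, so it is read within a list, by its percentile among all entries of that list. The lists give no read counts, so depth is unknown, and an entry missing from 1 list may be a weak signal below the caller's threshold. A peak in a mixture of nuclei also does not tell whether all of them or a fraction were open. All 11 stellate cell markers examined (Lrat, Reln, Des, Pdgfrb, Hgf, Ecm1, Rgs5, Colec11, Hand2, Ngfr and Dcn) had a replicated peak at a start or gene end. None of 26 markers of hepatocytes, Kupffer and other myeloid cells, lymphocytes, sinusoidal endothelium and cholangiocytes had one, although 4 of them had an entry there in A alone, and 6 had a replicated peak elsewhere in the locus. Over all protein-coding genes, 43.1% had a replicated peak at a start or gene end and 64.6% had one in the locus. The marker lists were chosen with earlier results of these data known.

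All 10 NF-kappaB genes had at least 1 replicated peak in their locus, against 64.6% of all protein-coding genes. Among genes within the length range of the members the share was 71.0%. The loci held 26 of the 23452 replicated peaks of the series. Rela and Nfkbie had 4 each, Nfkb1, Nfkbia and Nfkbib had 3 each, Nfkb2, Relb, Nfkbiz and Tnfaip3 had 2 each, and Rel had 1. The median was 2.5 per member against 1 over all protein-coding genes, of which 40.8% had at least 2 and 12.1% at least 4. The median length of the members was 12954 bp against 17169 bp. Each of the 10 also had a replicated peak touching the gene body itself, where the share over all genes was 48.7%.

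**Figure D1:**
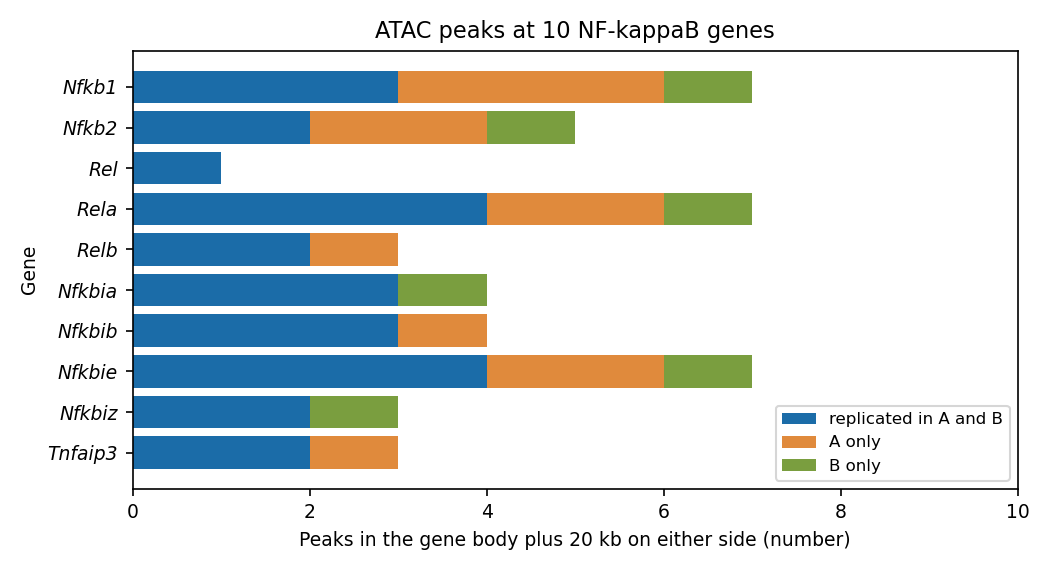
Number of peaks (x axis) in the body plus 20 kb on either side of each gene (y axis), split into peaks replicated in A and B, entries of A alone and entries of B alone. Every gene has a replicated peak, from 1 at Rel to 4 at Rela and Nfkbie, and Nfkb1 has the most entries of A alone, with 3.

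A replicated peak within 1 kb of a transcription start, or for 3 genes of either gene end, was found at 9 of the 10 genes, against 43.1% of protein-coding genes measured the same way. Starts came from a RefSeq promoter table that holds 7 of the members. Nfkb1, Relb and Nfkbiz are not in it, and for them either end of the gene was used. For the 7 in the table only the starts count, and a peak near the 3′ end is placed in the body or outside the gene. Tnfaip3 was the exception, with a peak over its start in A and none in B. Counted by library, all 10 had an entry of A at a start or end and 9 an entry of B, against 48.2% and 46.1% of protein-coding genes. An entry of A with no replicated peak at the start was seen in 5.05% of them. Of the 26 replicated peaks, 11 lay within 1 kb of the member's own start or end, 5 lay deeper in a gene body and 10 lay outside the genes.

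**Figure D2:**
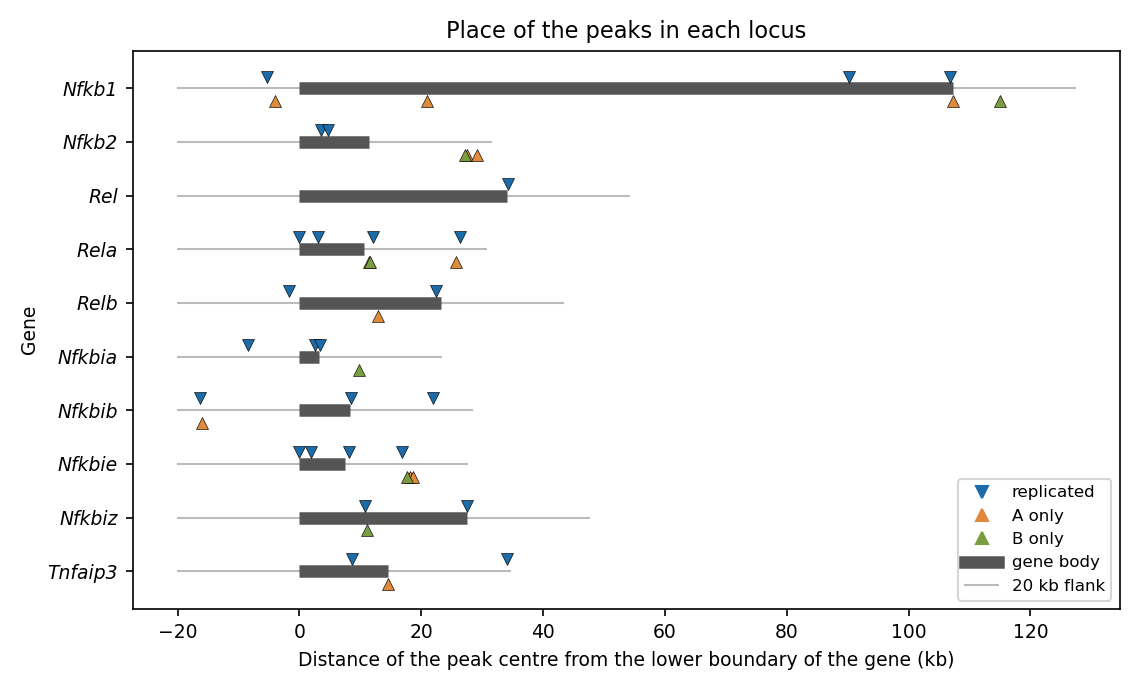
Position of each peak centre, in kb from the lower boundary of the gene on the chromosome (x axis), for each locus (y axis), with replicated peaks above and single-library entries below the gene body. At Rel the single peak sits at the higher boundary, where the gene starts, and at Tnfaip3 the start carries an entry of A alone while a replicated peak lies near the outer edge of the flank.

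The sequences just before the starts of 5 of these genes are shown because they hold matches to the NF-kappaB consensus, the site that NF-kappaB dimers bind. Each line gives the 250 bases before the start, read 5′ to 3′ on the gene's own strand from RefSeq, build GRCm38.p6, with every match on either strand in capitals.
Nfkb2, chr19:46304487-46304736, plus strand: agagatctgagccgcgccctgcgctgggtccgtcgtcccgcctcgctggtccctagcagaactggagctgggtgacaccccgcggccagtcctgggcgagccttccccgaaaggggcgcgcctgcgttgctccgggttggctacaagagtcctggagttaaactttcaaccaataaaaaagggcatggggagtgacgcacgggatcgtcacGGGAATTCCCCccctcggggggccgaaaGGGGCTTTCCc
Rel, chr11:23770970-23771219, minus strand: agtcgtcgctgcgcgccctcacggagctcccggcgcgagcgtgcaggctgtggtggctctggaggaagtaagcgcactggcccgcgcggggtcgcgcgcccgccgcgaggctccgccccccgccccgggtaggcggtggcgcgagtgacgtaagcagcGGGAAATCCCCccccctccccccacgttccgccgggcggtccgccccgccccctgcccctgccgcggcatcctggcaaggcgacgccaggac
Nfkbia, chr12:55492648-55492897, minus strand: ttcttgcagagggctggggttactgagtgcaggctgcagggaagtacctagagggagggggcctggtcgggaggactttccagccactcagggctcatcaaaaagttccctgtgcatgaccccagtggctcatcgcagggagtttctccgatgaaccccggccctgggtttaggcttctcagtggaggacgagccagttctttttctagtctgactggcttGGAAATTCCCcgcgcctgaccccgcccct
Nfkbie, chr17:45555450-45555699, plus strand: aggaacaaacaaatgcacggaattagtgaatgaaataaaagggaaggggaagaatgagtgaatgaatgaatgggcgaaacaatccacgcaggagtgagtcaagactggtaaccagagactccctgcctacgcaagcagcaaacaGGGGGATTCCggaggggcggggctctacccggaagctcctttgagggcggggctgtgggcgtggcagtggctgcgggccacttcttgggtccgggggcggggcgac
Tnfaip3, chr10:19015411-19015660, minus strand: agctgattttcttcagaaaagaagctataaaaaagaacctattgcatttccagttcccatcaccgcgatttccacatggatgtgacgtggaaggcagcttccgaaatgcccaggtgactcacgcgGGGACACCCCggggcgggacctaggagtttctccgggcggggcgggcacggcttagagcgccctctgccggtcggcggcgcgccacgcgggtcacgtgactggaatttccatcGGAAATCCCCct

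In the 300-base windows around their starts, from 250 bases before to 50 after, 5 of the 7 members in the table held the consensus at least once, against 5.53% of the 17492 protein-coding genes in the table. Counted by window, the share was 4.81% of all 21263 windows and 4.96% of the 7943 windows that touched a replicated peak. The 5 genes were Nfkb2, Rel, Nfkbia, Nfkbie and Tnfaip3, and Rela and Nfkbib had no match. The members held 11 distinct matches, including an overlapping pair offset by 1 base at Nfkb2 and another at Rel. Of the 11, 8 lay wholly inside a peak of A and a peak of B, 2 inside a peak of A alone, both at Tnfaip3, and 1 at Nfkb2 in neither. Of the 10 member windows searched, 8 touched a replicated peak. How often matches lie inside peaks over all genes was not counted, so no excess can be read from these numbers. A match describes the letters only and is not a measurement of binding. Because known NF-kappaB target genes are among the members by choice, the comparison with all genes is not an independent test.

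The same windows were searched for the AP-1 motif TGANTCA, the GC box GGGCGG and the CCAAT box CCAAT, each on both strands. TGANTCA was found in 3 of the 7 genes, Nfkb2, Nfkbie and Tnfaip3, against 8.12% of all genes and 6.99% of all windows, and none of the 3 sites lay wholly inside peaks of both replicates. GGGCGG was found in 6 of 7 against 49.2%, in all but Nfkbib. CCAAT was found at Nfkb2 alone, against 42.3% of all genes and 38.2% of all windows. Windows that touch a replicated peak held GGGCGG more often than all windows, 72.4% against 46.2%, and of the 8 member windows that touch one, 6 held it.

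Among the DNA-binding subunits, Rela encodes a strong transcriptional activator, the partner of the Nfkb1 product in the best known dimer. Rela lies on chromosome 19 from 5637442 to 5648134. Its start peak, at 5637322 to 5637534, covered the lower boundary of the gene, ended 7 bp short of the start in the promoter table and was enriched 12.1-fold in A and 6.86-fold in B. These values stood at percentiles 66.7 and 13.2 of the lists, so the peak was above the middle of A and near the bottom of B. A peak inside the gene at 5640443 to 5640719 had 7.75 in A and 6.86 in B, below the median of both lists. Beyond the 3′ end of Rela, a peak at 5649361 to 5649701 had 14.4 in A and 6.63 in B. The remaining peak, at 5663632 to 5663847, lay 15.5 kb past the gene and covered a start of Sipa1, with 12.8 in A and 13.5 in B. Nearer the 3′ end, A alone had an entry 0.65 kb past the gene with 6.4, and B alone had one 0.86 kb past it with 5.52. Thus the replicated peaks nearest Rela were lower in rank in B than in A, though the one inside the gene was low in both. The one at its neighbour was high in both.

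Nfkb1 encodes a precursor that is processed into a DNA-binding subunit without an activation domain of its own. It is the longest member, on chromosome 3 from 135584655 to 135691969, and its replicated peaks were of middling or low rank. The replicated peak nearest an end, at 135691365 to 135691534, lay 435 bp inside the higher end, with 6.75 in A and 10.2 in B. A further entry of A, at 135691879 to 135692043, covered that end itself with 7.36 and had no counterpart in B. The peak in the gene at 135674734 to 135675034 had 8.44 in A and 6.94 in B. The third lay 5.12 kb outside the lower end, at 135579260 to 135579531, and reached 9.70 in A and 9.93 in B. In A none of the 3 reached the list's median of 9.97, whereas in B those at the higher end and outside the lower end were above the list's median of 9.56. B also had an entry of its own 7.68 kb outside the higher end, with 11.8.

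Nfkb2 encodes the precursor of the subunit used in the non-canonical branch of the pathway. It lies on chromosome 19 from 46300994 to 46312400, and the table gives it starts at 46304737, 46305695 and 46305930. Both replicated peaks of its locus lay over a start. The peak at 46304215 to 46304746 covered the first start, with 11.4 in A and 11.5 in B, and its summits were 296 bp apart. It held the overlapping matches GGGAATTCCC and GGGGAATTCC, 39 to 29 bases before that start, and the match GGGGCTTTCC, 11 to 2 bases before it. These matches lay 377 to 405 bp from the summit of A and 81 to 109 bp from that of B. The peak at 46305619 to 46305779 covered the second start, with 6.07 in A and 8.85 in B. It held the match GGGACTTTCC at 46305705 to 46305714, which was 11 bp from the summit of A and 38 bp from that of B. The lower boundary of Nfkb2 itself, upstream of these starts, had no replicated peak within 1 kb.

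Rel encodes c-Rel, the subunit best known from lymphocytes. Its locus, on chromosome 11 from 23736847 to 23770969 with its flanks, held 1 peak in each library and nothing else. That peak was broad, 787 bp in A from 23770691 to 23771477 and 849 bp in B, and covered the start. Only 0.112% of the entries of A and 0.059% of those of B were as wide or wider. Its fold enrichment was 9.61 in A and 11.4 in B, at percentiles 46.7 and 66.2, and the summits were 518 bp apart. The overlapping matches GGGAAATCCC and GGGGATTTCC lay in the peak, 92 to 82 bases before the start. They were 231 to 232 bp from the summit of A and 285 to 286 bp from that of B.

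Relb encodes the subunit that pairs with the processed Nfkb2 product. It lies on chromosome 7 from 19606217 to 19629438. The replicated peak at 19628452 to 19629002 lay 436 bp inside its higher end, with 15.9 in A and 14.6 in B, and was 551 bp wide in A. These were percentiles 84.4 and 83.2, above those of any peak at the starts or ends of the other 4 subunits. The other peak, at 19604383 to 19604658, was stronger and reached 20.5 in A and 17.7 in B. It was 1.56 kb outside the lower end of Relb and covered a start of Clasrp, so it cannot be given to Relb alone.

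Among the inhibitors, Nfkbia encodes IkappaB alpha, the inhibitor that NF-kappaB itself quickly restores. Nfkbia is the shortest member, on chromosome 12 from 55489409 to 55492647, and its 3 replicated peaks all kept more than 1 kb from other protein-coding genes' ends. The peak over its start, at 55492551 to 55492892, had 14.8 in A and 11.6 in B. It held the match GGGAATTTCC, 29 to 20 bases before the start, 72 bp from the summit of A and 93 bp from that of B. A peak in the gene at 55491807 to 55492105 had 5.17 in A and 6.76 in B and was low in both lists, at percentile 0.977 of A. The strongest peak of the locus lay 8.30 kb past the 3′ end, at 55480698 to 55481112, and reached 19.4 in A and 14.7 in B. Its summits were 3 bp apart in the libraries.

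Nfkbie encodes IkappaB epsilon, on chromosome 17 from 45555700 to 45563169. The peak over its start, at 45555513 to 45555779, had 12.5 in A and 14.3 in B. It held the match GGGGGATTCC, 106 to 97 bases before the start, 52 bp from the summit of A and 82 bp from that of B. A weak peak in the gene, at 45557463 to 45557616, had 5.96 in A and 6.37 in B. The strongest, at 45563689 to 45563993, lay 520 bp past the 3′ end with 19.7 in A and 15.7 in B, and it covered the start of Slc35b2. The fourth, with 7.93 in A and 7.03 in B, lay within 1 kb of an end of Hsp90ab1. Only 2 of the 4 peaks were therefore away from the ends of other genes.

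Nfkbib encodes IkappaB beta, on chromosome 7 from 28758251 to 28766644. Its start peak, at 28766427 to 28766877, had 18.7 in A and 16.1 in B, the highest values among the 11 peaks counted at a start or end. Sirt2 starts 108 bp away on the opposite strand, and both starts lay inside the peak in both libraries. The 107 bases between the starts are shown because they are the only stretch of this peak that both genes have upstream of them, and no match to the NF-kappaB consensus was found in them.
Nfkbib, chr7:28766645-28766751, minus strand: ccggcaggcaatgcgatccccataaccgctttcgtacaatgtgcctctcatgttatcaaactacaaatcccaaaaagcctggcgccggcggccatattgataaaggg

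A peak 16.2 kb past the 3′ end of Nfkbib, at 28741746 to 28742058, had 20.9 in A and 19.8 in B, the highest fold enrichment among the 26. It covered starts of Mrps12 and Sars2. The remaining peak lay 13.5 kb upstream, at 28780160 to 28780350. It had 9.55 in A and 6.62 in B and was the only peak of the locus away from the ends of other genes.

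Nfkbiz encodes a nuclear IkappaB protein that is known to modulate a subset of NF-kappaB targets. It lies on chromosome 16 from 55811375 to 55838954. The peak at its higher end, 55838837 to 55839105, had 10.7 in A and 11.4 in B. It also lay within 1 kb of an end of Nxpe3, whose start in the table is elsewhere. The peak deep in the gene, at 55822061 to 55822311, had 13.8 in A and 9.39 in B, with summits 8 bp apart, and B had a further entry next to it.

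Tnfaip3 encodes a ubiquitin-editing enzyme that shuts off signalling upstream of the IkappaB kinase and is a classical feedback gene. It lies on chromosome 10 from 19000910 to 19015410, with starts at 19015410 and 19011963. The entry of A over the first start, at 19015266 to 19015652, was 387 bp wide with a fold enrichment of 11.6, at percentile 63.1 of A. B had no entry there. The matches GGGACACCCC and GGGGATTTCC, 125 and 12 bases before that start at their outer base, both lay in the entry of A. They were 10 and 123 bp from its summit, in that order. Away from the start, the replicated peak in the gene stood at percentile 71.5 of A and 66.4 of B. The one upstream stood at 66.5 and 65.8. The peak in the gene at 19009391 to 19009653 had 12.9 in A and 11.4 in B. The peak 19.4 kb upstream, at 19034839 to 19035128, had 12.1 in A and 11.4 in B, with summits 1 bp apart. Both peaks kept more than 1 kb from the ends of other protein-coding genes.

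Over the 26 replicated peaks, fold enrichment ran from 5.17 to 20.9 in A with a median of 12.1, and from 6.37 to 19.8 in B with a median of 11.4. Over all 23452 replicated peaks the medians were 11.9 and 10.4, close to those of the 26. The 11 peaks at the members' own starts or ends had medians of 11.4 in both A and B. The 5 deeper in the gene bodies had 8.44 and 6.94, and the 10 outside the genes had 13.6 and 12.4. Of those 10, 5 were within 1 kb of where a neighbouring protein-coding gene begins or ends, and they included the strongest in both libraries. The median ratio of A to B was 1.11, as over all replicated peaks, and single peaks ran from 0.661 at the end of Nfkb1 to 2.17 past the 3′ end of Rela. Both libraries placed 13 peaks above the median of all their entries and 7 below it. Those medians were 9.97 in A and 9.56 in B, below the 11.9 and 10.4 of all replicated peaks. The same count over all replicated peaks was not made, so it does not set the 26 apart. The summits of A and B were a median of 29.5 bp apart. The widest distances were 518 bp at Rel and 296 bp at the first start of Nfkb2. Next came 192 bp in the body of Nfkbia, 172 bp at the start of Nfkbib and 106 bp in the body of Nfkb1. The members' loci also held 12 entries of A and 6 of B without a counterpart. Thus 68.4% of the entries of A and 81.2% of those of B in these loci were replicated, against 64.1% and 81.7% in the lists as a whole.

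**Figure D3:**
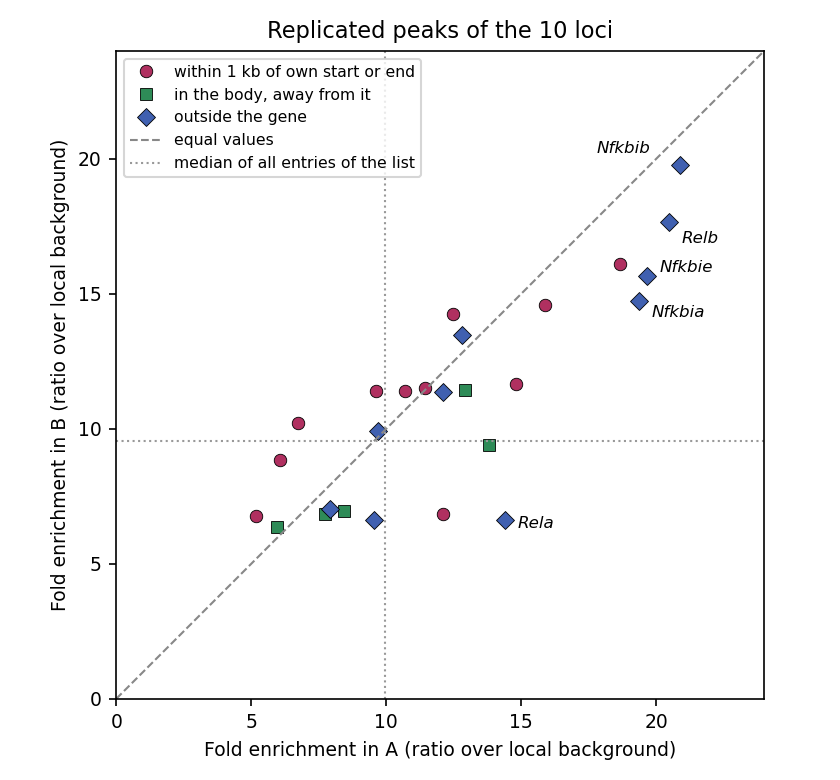
Fold enrichment of the 26 replicated peaks in A (x axis) and B (y axis), both as ratios over local background, coloured by place, with dotted lines at the median of all entries of each list and labels on the peak of highest value in A for 5 genes. The labelled peaks of Nfkbib, Relb, Nfkbie and Nfkbia stand highest in A, all outside the genes, and the one past the 3′ end of Rela lies farthest below the line of equal values.

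The limit of 20 kb included the Tnfaip3 peak at 19.4 kb and left out peaks at 21921 bp from Nfkbie and 22030 bp from Nfkbia. The former of these had 11.6 in A and 11.5 in B and lay at an end of Slc29a1, and the latter had 6.03 and 6.12. Nfkb1, Rel and Tnfaip3 had no replicated peak between 20 and 50 kb from the gene. Past the locus, the next replicated peaks of Tnfaip3 were 184 kb away on the low side and 107 kb on the high side, and those of Rel were 70.8 and 84.5 kb away. Rela, Nfkbia, Nfkbib and Nfkbie had 4 replicated peaks each in that range.

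The rest of the pathway was examined in 65 other genes, listed by role. A replicated peak lay in the locus of 52 (80%) and at a start or gene end of 44 (67.7%), beside the 64.6% and 43.1% of all protein-coding genes given above. The share at starts ran from 14 of 15 adaptors and ubiquitin ligases to 9 of 20 target genes. The differences between roles were not tested.

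Of 10 genes of the IkappaB kinase complex and its activators, 9 had a replicated peak in the locus and 8 at a start or end. Ikbkg, the regulatory subunit of the kinase, and Map3k14, the kinase of the non-canonical branch, had 3 each, and the strongest at Ikbkg reached 19.9 in A and 22.7 in B. Ikbke, a related kinase, had 2, neither at its start. Tab1 had none, although each library had an entry of its own at the start or end. Of 15 adaptors and ubiquitin ligases, 14 had one both in the locus and at a start or end. Tradd, an adaptor of the TNF receptor, had 7, none of them in its body. Rnf31 and Sharpin, parts of the linear ubiquitin ligase, had 5 and 4. Traf1 had none.

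Of 10 other inhibitors and feedback regulators, 8 had a replicated peak in the locus and 6 at a start or end. Bcl3, a nuclear IkappaB protein, had 4 in the locus and none at its start, where A alone had an entry. Zc3h12a, an RNase that degrades inflammatory transcripts, had 4, and Tnip2 had 3, the strongest with 24.3 in A and 16.7 in B. Tnip3 had no entry in either library. Nfkbid had no replicated peak, although each library had an entry of its own at the start. Of 10 receptors, 8 had a replicated peak in the locus and 7 at a start or end. The TNF receptor genes Tnfrsf1a and Tnfrsf1b had 7 each and the interleukin 1 receptor gene Il1r1 had 6, all 6 in its body. Ltbr shares its strongest peak with Tnfrsf1a, its neighbour. Tnfrsf11a and Tlr2 had no replicated peak, with 1 entry of B each.

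Of 20 well known targets, 13 (65%) had a replicated peak in the locus and 9 (45%) at a start or end, close to the shares over all protein-coding genes. Bcl2l1, which encodes a survival protein, had 7, of which 6 lay in its body. Sod2, which encodes the mitochondrial superoxide dismutase, and the growth factor gene Csf1 had 4 each. Nos2 had no entry in either library, and Lif had 2 in A alone. Cxcl1 and Cxcl2 share their replicated peak, which lies across the lower boundary of Cxcl1.

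**Figure D4:**
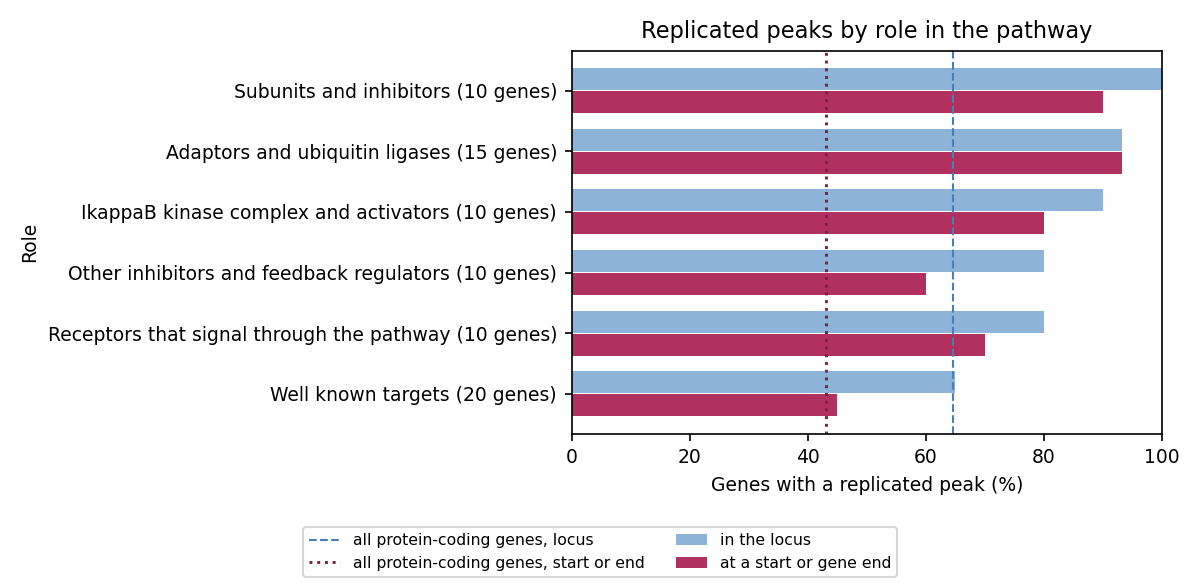
Share of genes (x axis, percent) with a replicated peak in the locus or at a start or gene end, for the 10 subunits and inhibitors and for the other pathway genes by role (y axis), with lines at the shares over all protein-coding genes. The subunits and inhibitors reach 100% in the locus, and the targets lie at 65% and 45%, next to the lines at 64.6% and 43.1%.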

How the data were processed

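Per the labels, each of the 2 samples is 1 ATAC-seq library with 1 peak list. The lists hold what the authors' peak caller gave: the fold enrichment, a linear ratio over local background, the −log10 p and the −log10 q. The deposited score repeats the −log10 q, multiplied by 10 and cut to a whole number, in 99.9% of the lines of A. Per the submitters' processing notes, the tools were MACS2, HOMER, STAR 2.7.0, Picard, SAMtools and bedtools, given without their roles, and the build was mm10. A shift of reads for the Tn5 offset, which would move peak edges by a few bases, is not stated in these notes. The lists hold 36577 and 28794 entries.

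Python 3.11.15, numpy 2.4.6, pandas 2.3.3 and matplotlib 3.10.9 were used. Gene spans and start sequences came from RefSeq tables of GRCm38.p6, whose coordinates mm10 shares. All 10 members matched by symbol. Starts are those of the promoter table, which covers 79.9% of protein-coding genes, and both gene ends stand in for the rest. No genome sequence was used, so distal peaks were not read. The overlap count was tested with a second list simulated by shifting entries of A. The locus count was tested against a direct count of the entries of A at randomly drawn genes.

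The members and lists were chosen with earlier results of these data known. All members are named. Of other pathway genes, each role names up to 3 with the most replicated peaks, with ties settled by fold enrichment in A, and up to 2 with none, longest first. Ltbr, Cxcl1, Cxcl2 and the sequence of Tnfaip3 fall outside it and were picked with their values in view, and the closing section names all genes with a match. Sequences follow starts under a replicated peak, without stretches downstream of another start. Alternatives changed the overlap, threshold, flank, gene-end window, neighbours and replicates.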

Additional observations from a re-analysis of the deposited data

How the results depend on the processing

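The statement that all 10 members had a replicated peak held under each alternative except 3. The number was 9 with summits within 100 bp, without Rel, against 63.4% of all protein-coding genes. It was also 9 with entries above the median −log10 q, without Nfkb1, against 52.7%. With the 10000 entries of each list with the highest −log10 q it was 5, at Rela, Relb, Nfkbia, Nfkbib and Nfkbie, where the share of all protein-coding genes was 41.6%. In that setting the members with a peak at a start or end were 4 against 23.8% of all genes, and the other pathway genes were 33 in the locus and 24 at a start or end. The number of replicated peaks was 9 in that setting, 15 above the median −log10 q, 16 in gene bodies alone and 49 with 50 kb on either side. With 1 library left out and the entries of the other counted singly, the peaks were 32 to 38. The members with one at a start or end were then 9 to 10, against 46.1% to 48.2% of all genes. The number at a start or end was 10 with a window of 2500 bp, against 45.6%, with a Tnfaip3 peak 2.31 kb from a start. It was 8, against 41.9%, with either end used for every gene, an alternative chosen after seeing the data, which leaves out Nfkb2. With summits within 100 bp it was 7, without Rel, Nfkbib and Tnfaip3, against 41.4%. Above the median −log10 q it was 7, without Nfkb1, Rela and Tnfaip3, against 32.0%. The other alternatives for these results stayed within 1.5 times the value reported, and the median fold enrichment in A ran from 11.1 in gene bodies to 12.5 with summits within 100 bp. Of the counts for single members, 78 stayed within 1.5 times and 32 did not. With B left out and every entry of A counted, Nfkb1 had 6 and Nfkb2 had 4, against 3 and 2 replicated. Read depth is unknown and limits what an entry missing from 1 list can show. No paired analysis was possible because there is only 1 group.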

Other observations

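The NF-kappaB consensus was also counted in the start windows of the 53 other pathway genes in the promoter table. It was found in 20 of them (37.7%), against 5.53% of all protein-coding genes. Known NF-kappaB targets are on these lists by choice, so the comparison with all genes is not an independent test. By role, it was found in 6 of 9 other inhibitors and feedback regulators (Bcl3, Cyld, Nfkbid, Tax1bp1, Tnip1 and Tnip3) and in 9 of 15 targets (Bcl2l1, Ccl20, Csf1, Cxcl1, Cxcl10, Cxcl2, Il6, Irf1 and Sod2). It was found in 3 of 8 receptors (Il1r1, Tlr2 and Tlr3), in 1 of 8 genes of the kinase complex (Map3k7) and in 1 of 13 adaptors and ubiquitin ligases (Traf3). The adaptors and ubiquitin ligases had the lowest share with the consensus, 7.69%, and the kinase complex the next, 12.5%. Each rests on 1 gene, so their order carries little weight. Of all 15 adaptors and ubiquitin ligases, in the promoter table or not, 14 had a replicated peak at a start or end. The members had both often, with the consensus in 5 of 7 and such a peak at 9 of 10. Over protein-coding genes, 4.96% of the windows that touched a replicated peak held the consensus, against 4.81% of all windows. The matches are counts of letters in fixed windows, and the difference between roles was not tested.

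On the upstream side of Nfkbia the next replicated peak past its locus lay 328 kb away, at an end of Ralgapa1, with 15.1 in A and 7.43 in B. Within that side of the locus, B alone had an entry 6.51 kb upstream of the start, with a fold enrichment of 6.62.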
